A study of Mus musculus with 9 samples.

Results

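Genes of the interferon response and of antigen display on MHC class I are described here across motor neuron samples of a mouse model of spinal muscular atrophy (SMA). They are Rsad2, Ifit3, Bst2, Lgals3bp, Igtp, Irf1, H2-K1, H2-D1 and B2m, which is 9 of the 12393 genes named on the array. Every probe set that names 1 of them alone was taken, which gave 23 probe sets. Another 3 probe sets name a member together with other genes and were left out. The genes were proposed with earlier results of the same arrays known, from their log2 signal in the 3 groups. Their own group differences are therefore a description and support nothing.

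The study measured gene expression on 9 Affymetrix arrays, 3 per group, in laser-dissected motor neurons of the lumbar cord. Each array held cells of 1 mouse, collected at about 100 cells per cap and amplified in a double procedure. The wild type group was vehicle-treated. The SMA group was transgenic for SMA and also vehicle-treated. The third group was SMA mice that the labels call NSC-transplanted. All 3 groups had surgery at postnatal day 1, with vehicle or with cells, and were killed at 13 days. The sources used here do not give the strain, the SMA alleles, the sex of the mice or the origin of the transplanted cells. Below, a mouse is named by its group and its sample number. SMA mice enter both SMA minus wild type and the comparison of transplanted with vehicle-treated SMA. Transplanted SMA minus wild type shares arrays with each. The values of the 3 comparisons therefore stand side by side and are not independent.

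Interferons are secreted proteins that, through their receptors, JAK kinases and STAT and IRF transcription factors, switch on antiviral effectors, immunity-related GTPases and the machinery that shows peptides to T cells. A class I molecule consists of a heavy chain, such as H2-K1 or H2-D1, and the light chain B2m, which the heavy chain needs to reach the cell surface. Neurons carry little class I at rest. In the central nervous system class I is known both for T cell recognition and for a part in synapse remodelling, and motor neurons are among the neurons in which it has been described.

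The promoters of these genes hold short motifs at which interferon-driven and NF-kappa-B factors are known to bind, and the stretches below are printed because the members fall into sets by them. All 9 genes were matched to a RefSeq promoter window of assembly GRCm38.p6, from 250 bases before to 50 after a start site. Capitals mark the matches, searched on both strands, to 5 motifs. Among them are an interferon-stimulated response element (a GAAA repeat with NN between its copies) and an interferon consensus sequence (GAA, NN, then GAAAC). The others are kappa-B (GGGA, NNNN, then CC), the class I form of kappa-B (the first capitals in H2-K1) and a gamma-activated site (TTCNNNGAA). The first and second can overlap, and the class I form always holds a kappa-B match.
Rsad2, chr12:26456506-26456584, minus strand: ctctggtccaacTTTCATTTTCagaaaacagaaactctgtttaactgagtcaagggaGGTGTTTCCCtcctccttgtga
Igtp, chr11:58199499-58199543, plus strand: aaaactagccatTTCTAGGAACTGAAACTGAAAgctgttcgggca
H2-K1, chr17:34000417-34000470, minus strand: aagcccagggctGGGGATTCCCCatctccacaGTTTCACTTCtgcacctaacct
H2-D1, chr17:35262911-35262964, plus strand: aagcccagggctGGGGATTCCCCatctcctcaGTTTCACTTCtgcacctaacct
B2m, chr2:122147536-122147582, plus strand: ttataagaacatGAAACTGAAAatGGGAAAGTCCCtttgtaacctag

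Each stretch lies upstream of its gene's listed start site: 132 to 54 bases before it for Rsad2, 57 to 13 for Igtp, 183 to 130 for H2-D1 and 151 to 105 for B2m. The H2-K1 stretch is also upstream of its start site, but a longer annotated form of the gene begins further out and covers it. The H2-K1 gene spans chr17:33996012-34000619 and H2-D1 spans chr17:35263094-35267497 in that assembly, within the mouse MHC. The H2-K1 and H2-D1 stretches were identical at 53 of 54 bases (98.1%), with a class I kappa-B match followed by a reversed interferon consensus sequence. That kappa-B form was present in 10 of 32851 promoter windows (0.0304%) and, among the members, in H2-K1 and H2-D1. In B2m, the light chain gene, the interferon-stimulated response element came first and the kappa-B match after it, and Rsad2 held both motifs on the opposite strand, further apart. The interferon-stimulated response element was present in 3.44% of all windows and in 5 of the 9 genes, which are Rsad2, Ifit3, Bst2, Igtp and B2m. The interferon consensus sequence was present in 1.73% of windows and in Igtp, H2-K1 and H2-D1. In Igtp the interferon consensus sequence overlapped the gamma-activated site on one side and the response element on the other. Irf1 had a gamma-activated site (8.30% of windows) and a kappa-B match (20.7% of windows), and the Lgals3bp windows held none of the 5 motifs. Such matches describe letters and do not show that a factor was bound.

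The arrays as such were alike, with median signals of 31.4 to 35.8 and Pearson r across probe sets of 0.943 to 0.981 within groups and 0.946 to 0.97 between them, and their number limits the precision. Of 11 motor neuron and neuron markers, 6 were bright enough to test, led by the neurofilament gene Nefl at 559.1 to 1458. The cholinergic and motor neuron genes Slc18a3 (2.1 to 41.7), Slc5a7 (3 to 11.8), Isl1 (3.8 to 16.7) and Mnx1 (4.1 to 16.3) were near the floor. Other motor neuron genes were not. Isl2 was bright enough to test, with 62.6 to 119.8 in transplanted mice and 26.4 to 59.6 in the others. Prph was too dim to test but ranged from 1.5 to 76.6. Oligodendrocyte markers summed to 18451.6 to 34423.1 and microglial ones to 5484.2 to 13276.5 over the 9 arrays, so markers of neighbouring cell types were present on every array. SMA 1 and 2 carried skeletal muscle transcripts (sums of 2327 and 2880.5, against 62.7 to 173.8 elsewhere), and SMA 2 blood myeloid ones (7568.6).

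Of the 23 probe sets, 14 were among the brighter 50% of the array that was tested, and they stand for 7 genes. Ifit3 and Bst2 had no probe set bright enough, and 1 probe set of H2-K1 and 6 of H2-D1 were also too dim. By limma with Benjamini-Hochberg adjustment over 11313 probe sets, 0 of the 14 passed an adjusted p of 0.05 in SMA minus wild type, where 0.0442% of all probe sets passed. The same count was 0 in transplanted SMA minus SMA and 0 in transplanted SMA minus wild type, where 0% of all probe sets passed in each. At an unadjusted p under 0.05, 9 of the 14 were called in SMA minus wild type (6.04% of all probe sets), all lower (3.32%). Against vehicle-treated SMA, 2 were called after transplantation (4.77% of all), both higher (2.32%). Against wild type, 3 were called after transplantation (6.55% of all), 2 lower (3.28%) and 1 higher (3.27%). These probe sets were chosen on these contrasts, so nothing is read from their excess over the array.

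The signs were mostly shared, but the 14 probe sets stand for only 7 genes. Among them 6 are of the class I heavy chains and 3 of Rsad2, and B2m also has more than 1. Repeat readings of a gene are not separate members, so the counts below are not counts of genes. In SMA minus wild type 13 of the 14 differences were negative, with a median of -0.84 on the log2(signal + 16) scale, beside 49% negative and a median of 0.0056 over all probe sets. In transplanted SMA minus SMA 2 of 14 were negative (49.7% of all), with a median of 0.35 beside 0.0014. In transplanted SMA minus wild type 12 of 14 were negative (51.5% of all), with a median of -0.53 beside -0.0079. In SMA minus wild type the groups did not overlap for 4 probe sets that were lower (6.06% of all) and 0 that were higher (5.31%). In transplanted SMA minus SMA this held for 0 lower (4.68%) and 4 higher (4.43%), and in transplanted SMA minus wild type for 2 lower (7.04%) and 0 higher (7.11%). Differences are on a scale with 16 added to each signal, which understates the change of dim genes.

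**Figure D1:**
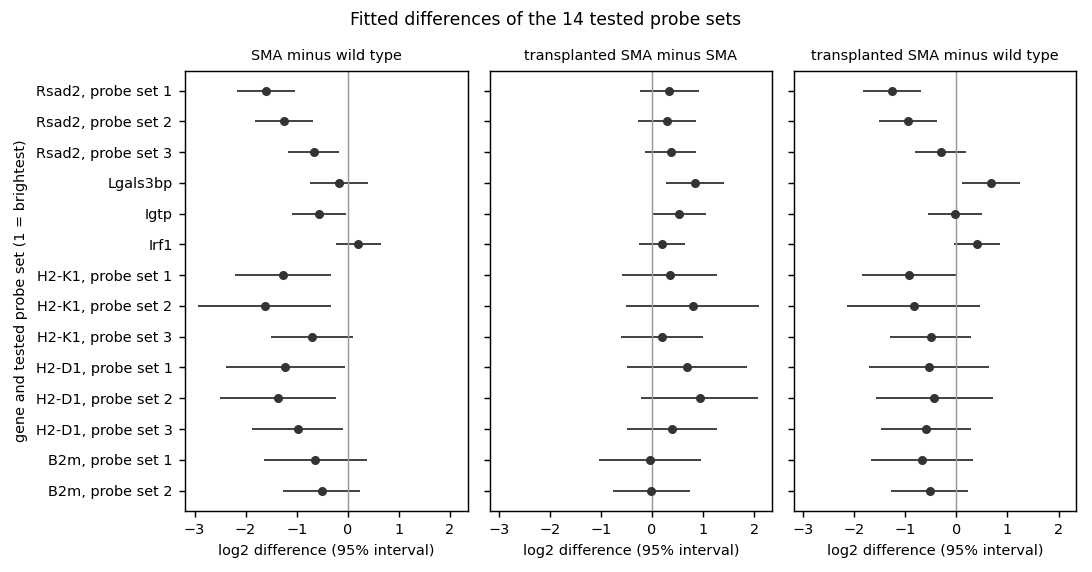
Fitted log2(signal + 16) differences with 95% intervals (x axis) for the 14 tested probe sets (y axis) in each of the 3 comparisons, from limma over all 9 arrays. In SMA minus wild type 13 of 14 points lie left of 0; in transplanted SMA minus SMA 2 of 14 do.

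Rsad2, which encodes viperin, an antiviral enzyme that makes a chain-terminating nucleotide, had, among the brightest probe sets of the tested members, the largest difference between wild type and SMA. Its brightest probe set had signals of 1207.9, 1024.5 and 1294.7 in wild type mice 1, 2 and 3. The signals were 366.1, 476.7 and 303.8 in SMA mice and 733.7, 404.9 and 369.7 among transplanted mice. All 3 wild type mice thus lay above all 6 others, and transplanted SMA 1 lay above the SMA range while transplanted SMA 2 and 3 lay within it. The group means were 1176 ± 138, 382 ± 87.6 and 503 ± 201 (SD, n = 3 each). The log2 difference between SMA and wild type was -1.60 (SE 0.26), a 3.03-fold lower level, with a limma adjusted p of 0.135. It was -1.26 (SE 0.26, limma adjusted p = 0.289) between transplanted SMA and wild type. Transplanted SMA exceeded SMA by 0.34 (95% interval -0.23 to 0.91), so those neighbours in the order did not differ beyond their spread.

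The other probe sets of Rsad2 repeated the order of wild type and SMA at lower signals. The second read 113.7, 57.4 and 104.7 among wild type mice, 17.2, 38.7 and 31.4 among SMA mice, and 45.3, 38.4 and 31.8 among transplanted mice. The dimmest read 57.7, 32.8 and 65.4 among wild type mice, 20, 29.6 and 28.2 among SMA mice, and 30.9, 35.4 and 48 among transplanted mice. Wild type and SMA did not overlap at either, and wild type and transplanted SMA overlapped at the dimmest. The SMA minus wild type differences were -1.25 (SE 0.26) and -0.67 (SE 0.23). Over the 9 arrays the 3 probe sets correlated with each other at Pearson r of 0.64 to 0.905, as repeat readings of 1 gene's transcripts in the same samples. The adjusted p of the brightest probe set depended on 1 array of the remaining group: without transplanted SMA 1 the difference stayed at -1.60 and its limma adjusted p was 0.02. Without SMA 1 and SMA 2, the arrays with muscle transcripts, only SMA 3 remained, and its difference from wild type was -1.89, a value of 1 mouse with no spread of its own.

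Several erythroid transcripts were, like Rsad2, highest in wild type mice. The summed signal of the 5 erythroid markers with a probe set was 4116.4 to 5976.4 among wild type mice, 2282.5 to 2733.7 in SMA and 1917.2 to 2861.5 among transplanted mice. Alas2, the first enzyme of heme synthesis in red cells, read 1574.5, 1107 and 2237.8 in wild type mice against 587.2 to 677.7 in SMA mice. Fech, the last enzyme of heme synthesis, read 1407.4 to 2402.8 in wild type and 521.7 to 952.9 in the other 6 mice. Bpgm, which makes the red cell regulator of oxygen binding, read 1107.4 to 1421.9 in wild type and 669.6 to 849.8 in SMA mice, but its 814.5 to 1231.3 in transplanted mice overlapped wild type. Slc4a1, the anion exchanger of the red cell membrane, did not separate the groups, with 144.8 to 206.6 in wild type mice and 101.4, 335.4 and 46.9 in SMA mice. The globin gene Hba-a1 was listed between 1.9 and 21.8 on every array. The erythroid list's part in the Rsad2 difference was not tested. Xist, the X-inactivation RNA, also differed between the groups, with 23.5 to 32.9 among wild type mice, 600.7, 879.5 and 47.6 in SMA mice and 366.1 to 739.6 among transplanted mice. The Y-linked gene Eif2s3y read 49 to 75.1 in wild type mice, 0.5, 0.1 and 108.9 in SMA mice and 0.4, 0.3 and 84.8 in transplanted mice, so these markers moved with the groups, and transplanted SMA 3 carried both transcripts. SMA 3, with Xist and Eif2s3y closest to the wild type pattern, had the lowest Rsad2 signal of the 9 arrays, a value of 1 mouse. With Xist as a covariate the Rsad2 difference was -1.99 (limma adjusted p = 0.176). Xist was low in all wild type mice and high in most SMA and transplanted mice, so that fit cannot separate it well from group. The part of sex in the Rsad2 difference was not tested.

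**Figure D2:**
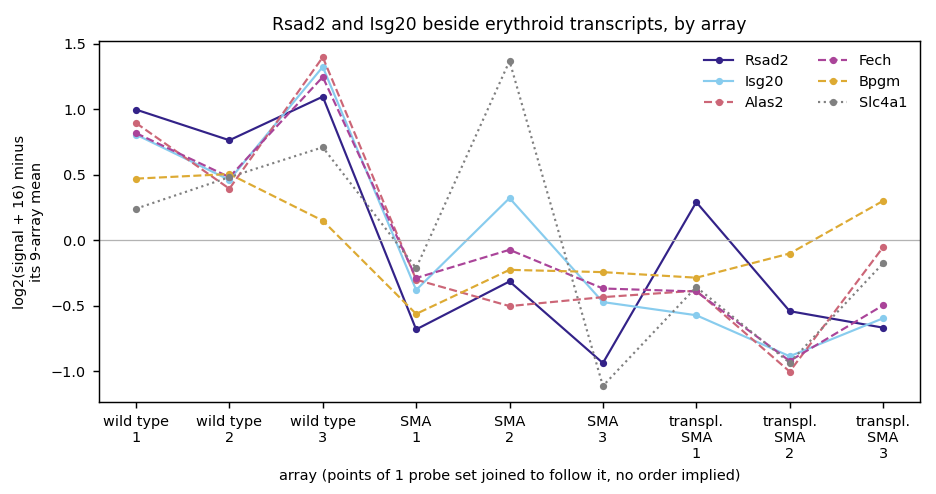
Log2(signal + 16) of Rsad2, Isg20 and the erythroid transcripts Alas2, Fech, Bpgm and Slc4a1 on each of the 9 arrays (x axis), each as the difference from its own 9-array mean (y axis). All but Slc4a1 separate the wild type from the SMA arrays; Slc4a1 is highest on SMA 2; lines only join points of 1 gene.

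Ifit3, a gene that interferon induces, and Bst2, a membrane tether that holds back budding virions, were too dim for the test. Ifit3 read 14, 14.8 and 47 among wild type mice, 20, 16 and 22.2 among SMA mice, and 42.9, 41.9 and 27.8 among transplanted mice. All 3 transplanted mice lay above all SMA mice, and wild type 3 lay above them all. Bst2 read 0.8 to 2.4 among wild type mice, 1.4 to 4.9 among SMA mice, and 6.6, 19.8 and 3.9 among transplanted mice. At such signals a value is close to the floor of the array, and no fold is given.

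Lgals3bp, a secreted glycoprotein that binds galectins and is induced by interferon, stood out in the transplanted mice. Its values were 32.9, 23.2 and 50 among wild type mice, 34.5, 27.3 and 24.8 among SMA mice, and 87.4, 72.1 and 40.9 among transplanted mice. Transplanted and vehicle-treated SMA mice did not overlap, whereas wild type 3 lay above transplanted SMA 3. The means were 35.4 ± 13.6, 28.9 ± 5.04 and 66.8 ± 23.7 (SD, n = 3 each). The difference was 0.85 (SE 0.26, limma adjusted p = 0.933) between transplanted SMA and SMA and 0.68 (limma adjusted p = 0.702) between transplanted SMA and wild type. SMA and wild type differed by -0.17 (95% interval -0.73 to 0.40), and the difference was 0.03 without wild type 3. Meningeal and fibroblast markers summed to 8377.1 in transplanted SMA 1, the highest of the 9 arrays, and to 2297.6 and 2138.9 in transplanted SMA 2 and 3. Microglial markers summed to 5783.7, 5484.2 and 10949.3 in the same mice, against 10366.9 to 11929.8 in SMA mice. Endothelial markers summed to 1835.6, 1079.8 and 952.8 in transplanted SMA 1, 2 and 3, against 548.3 to 1529.9 in SMA mice. The part of any of these lists in the Lgals3bp values was not tested.

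Igtp, an immunity-related GTPase induced by interferon gamma, was lowest in SMA mice. It read 84.1, 84.9 and 141.7 among wild type mice, 52.5, 81.1 and 57.6 among SMA mice, and 121.8, 74.1 and 102.8 among transplanted mice. Wild type and SMA did not overlap, although wild type 1 and SMA 2 were only 3 signal units apart, and transplanted SMA 2 lay inside the SMA range. The difference was -0.57 (SE 0.24, limma adjusted p = 0.807) for SMA minus wild type, 0.53 (limma adjusted p = 0.933) for transplanted SMA minus SMA and -0.04 for transplanted SMA minus wild type. Without wild type 3 the SMA minus wild type difference was -0.35. Among wild type mice, wild type 3 had the highest sum of every marker list except the neuronal one, where it was lowest (1896.9). Examples are its meningeal (5114.2), erythroid (5976.4), oligodendrocyte (27545.5) and astrocyte (6896.7) sums. Transplanted SMA 1, highest for Igtp in its group, had the highest meningeal and endothelial sums there. The part of these markers in the Igtp values was not tested.

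Irf1, a transcription factor that interferon gamma induces and that acts on class I promoters, did not follow that order. It read 74.6, 75.1 and 123.1 among wild type mice, 111, 98 and 106.6 among SMA mice, and 141.6, 105.1 and 122.2 among transplanted mice. The differences were 0.21 (SE 0.20), 0.19 and 0.40 in the 3 comparisons, with a smallest limma adjusted p of 0.773 for transplanted SMA minus wild type. It was the 1 tested member with a positive difference between SMA and wild type, and all 3 groups overlapped.

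**Figure D3:**
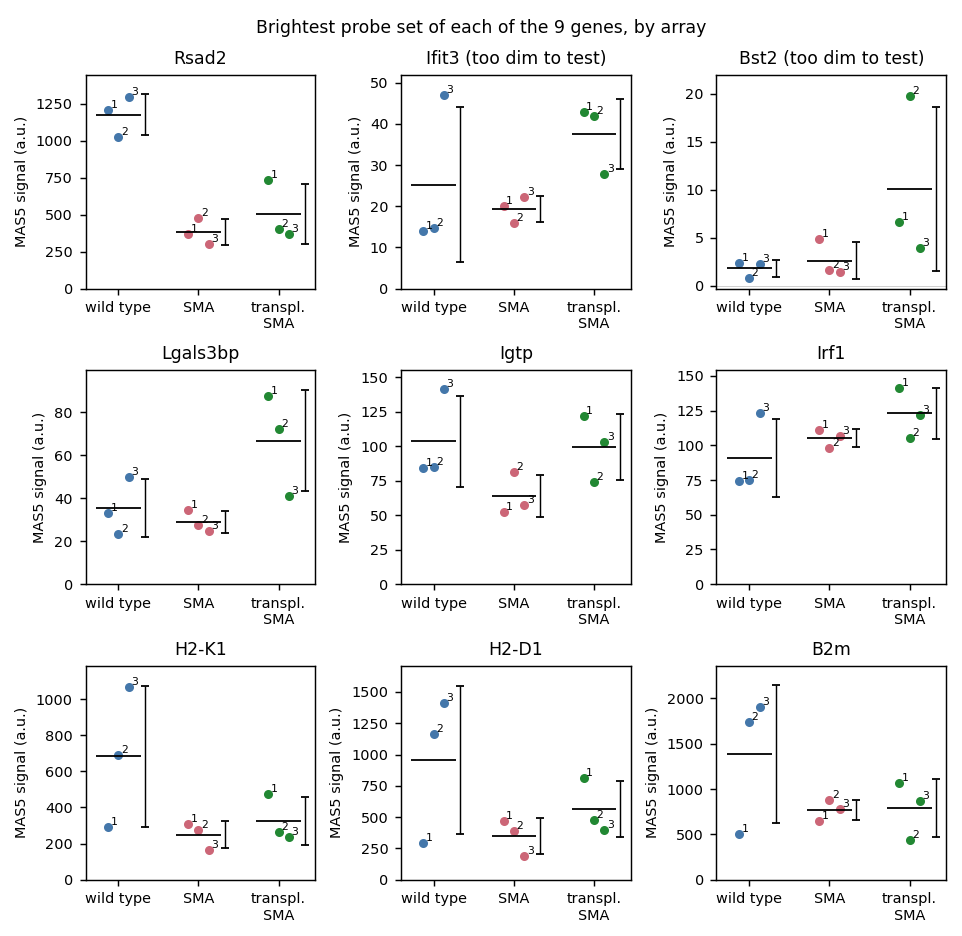
MAS5 signal in arbitrary units (y axis) of the brightest probe set of each of the 9 genes by group (x axis); each numbered point is 1 mouse, the horizontal line is the group mean and the bracket is 1 SD to either side. Rsad2 separates all 3 wild type mice from the other 6, while wild type 1 sits among the SMA mice for H2-K1 and H2-D1 and below them for B2m.

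The class I heavy chain genes were high in 2 of the 3 wild type mice. H2-K1 read 289.9, 691.5 and 1068.4 among wild type mice, 307.5, 272.8 and 165.8 among SMA mice, and 474.6, 263.2 and 236.2 among transplanted mice. Wild type 1 lay inside the SMA range, and wild type 2 and 3 lay above every other mouse. H2-D1 had the same shape, with 291.8, 1164.9 and 1413.9 among wild type mice, 466, 393 and 191.2 among SMA mice, and 814.9, 476.2 and 398.4 among transplanted mice. Transplanted SMA 1 was the highest of the 6 SMA mice for both genes. The wild type means carried a wide spread, 683 ± 389 for H2-K1 and 957 ± 589 for H2-D1 (SD, n = 3), against 249 ± 73.9 and 350 ± 142 in SMA and 325 ± 131 and 563 ± 221 among transplanted mice.

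SMA minus wild type differences of the 3 tested H2-K1 probe sets were -1.26 (SE 0.43), -1.63 (SE 0.59) and -0.70 (SE 0.36), from the brightest to the dimmest, and those of H2-D1 were -1.22 (SE 0.53), -1.36 (SE 0.52) and -0.98 (SE 0.40). Their limma adjusted p-values were all between 0.686 and 0.864. None of the 6 separated wild type from SMA, since wild type 1 lay within or below the SMA range at each. Transplanted SMA minus SMA ranged from 0.19 to 0.93 over the same 6, without overlap at 1 probe set of each gene, and transplanted SMA minus wild type from -0.92 to -0.43. The last of these depended on single arrays: at the 2 brighter H2-D1 probe sets it was -0.54 and -0.43, but -0.12 and -0.0093 without wild type 3, -0.26 and -0.17 without wild type 2, and -1.23 and -1.11 without wild type 1. At the first it was also -0.83 without transplanted SMA 1 and -0.33 without transplanted SMA 3, and at the second -0.27 without transplanted SMA 2. For the brightest H2-D1 probe set the SMA minus wild type difference was -1.92 without wild type 1 and -0.81 without wild type 3. SMA 3 alone, the lowest SMA array for both genes, differed from wild type by -1.96 at that probe set and by -1.76 at the brightest one of H2-K1. The array has shared-probe sets (names ending in _x_at) for all 6, and class I genes are near-identical copies of each other, so which heavy chain a signal came from is uncertain. Over the 9 arrays these 6 correlated at Pearson r of 0.842 to 0.973, a figure to which shared sequence can contribute.

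B2m, the light chain that pairs with every classical class I heavy chain, is a single gene with its own sequence, and it followed the heavy chains only in part. Its brightest probe set read 508.5, 1734.5 and 1902.8 among wild type mice, 650.7, 874.1 and 782 among SMA mice, and 1068.2, 438.6 and 866 among transplanted mice. Wild type 2 and 3 were again above all others, and wild type 1 was below all SMA mice. The second probe set read 421.5, 626.5 and 1339.8 among wild type mice, 403.7, 514.5 and 580.2 among SMA mice, and 582.6, 452.8 and 440.9 among transplanted mice. SMA minus wild type was -0.63 (SE 0.46) and -0.51 (SE 0.34), and transplanted SMA minus SMA was -0.04 and -0.02. Without wild type 3 the SMA minus wild type values were -0.30 and -0.06, without wild type 2 the first was -0.36, and without wild type 1 they were -1.23 and -0.87.

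Averaged over the 8 class I and B2m probe sets, each set against its own 9-array mean, wild type 2 stood at 0.90 and wild type 3 at 1.38 on the log2 scale, with 8 of 8 above their mean. Wild type 1 stood at -0.61 with 0 of 8 above. SMA mice stood at -0.43, -0.19 and -0.83, and transplanted SMA mice at 0.30, -0.31 and -0.21, where 7 of 8 were above the mean in transplanted SMA 1. Summed microglial markers had the same order within wild type, with 6611.7, 10238.9 and 13276.5 in mice 1, 2 and 3, but were 10366.9 to 11929.8 in the SMA mice, whose class I signals were low. Meningeal and fibroblast markers also had that order within wild type (1562.2, 1874.3 and 5114.2) and were highest in transplanted SMA 1 (8377.1), which had the highest class I signals among the SMA mice. Blood myeloid markers summed to 505.2, 1393.8 and 1922.7 in wild type mice 1, 2 and 3, in the same order, and to 784.2, 506.9 and 2228.3 in transplanted mice. Oligodendrocyte (23910.4, 25042.2 and 27545.5), skeletal muscle (62.7, 79.6 and 173.8) and T and NK cell sums (67, 86.5 and 183) also kept that wild type order. Neuronal sums ran in reverse (2193.9, 2111.5 and 1896.9), and endothelial, astrocyte and erythroid sums did not keep it. The order was thus shared by unlike cell types. T and NK cell markers were dim throughout: 0 of 12 were bright enough to test, 2 stayed under 16 on every array, the highest single signal was 40.1, and sums were 67 to 183 among wild type mice, 97.5 to 153.7 in SMA and 141.2 to 199.5 among transplanted mice. Endothelial markers, from cells that carry class I, summed to 563.4 to 1102.6, 548.3 to 1529.9 and 952.8 to 1835.6 in the 3 groups. The part of these cell types in the class I values was not tested. In such bulk samples fewer cells of a type and less RNA per cell cannot be told apart.

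**Figure D4:**
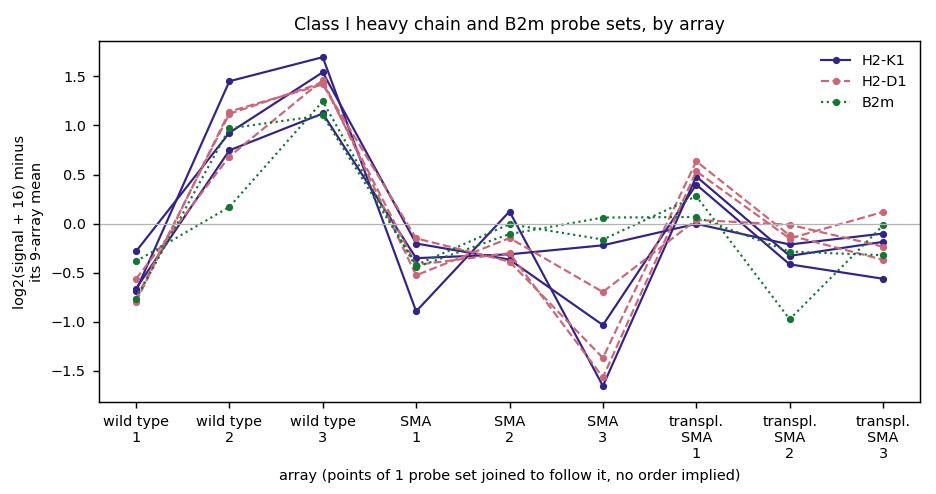
Log2(signal + 16) of the 8 tested H2-K1, H2-D1 and B2m probe sets on each of the 9 arrays (x axis), each as the difference from its own 9-array mean (y axis). The 8 lines lie above 0 on wild type 2 and 3 and below it on wild type 1, and 7 of 8 are above it on transplanted SMA 1; lines only join points of 1 probe set.

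The rest of the pathway was followed in lists of 152 other genes, of which 112 had a probe set of their own and 54 were bright enough to test. By limma 0 of the 54 passed an adjusted p of 0.05 in each of the 3 comparisons. At an unadjusted p under 0.05 there were 4 lower and 2 higher in SMA minus wild type, where 3.32% and 2.71% of all probe sets were so called. Counts were 1 lower and 2 higher in transplanted SMA minus SMA (2.46% and 2.32% of all), and 3 lower and 6 higher in transplanted SMA minus wild type (3.28% and 3.27% of all). The median differences of the 54 were 0.02, 0.06 and 0.06, and 24, 22 and 22 of them were negative. The list as a whole sat near 0 in SMA minus wild type. The median of the 14 member probe sets was -0.84 there, but the members were chosen on these contrasts. Some members also entered by several probe sets, while each list gene entered by 1. Nothing is read from the distance between these medians. The other 58 genes were too dim to test, with a highest signal of 73.7, and the 4 interferon genes among them (Ifnb1, Ifng, Ifna4 and Ifna2) did not exceed 24.2 on any array.

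Among 19 tested type I interferon-induced genes, median differences were 0.02, 0.13 and 0.18 in the 3 comparisons. Isg20, an exonuclease that degrades viral RNA, read 178.7, 137.1 and 262.7 among wild type mice, 69.5, 123.1 and 64.2 among SMA mice, and 58.8, 44.2 and 57.6 among transplanted mice. No 2 groups overlapped, and the order was wild type, SMA, transplanted SMA. It differed by -1.04 (SE 0.26, limma adjusted p = 0.534) between SMA and wild type and by -1.55 (SE 0.26, limma adjusted p = 0.142) between transplanted SMA and wild type. Rtp4, a chaperone of receptors, read 34.7, 33.9 and 52.3 among wild type mice, 23.3, 32.4 and 14.2 among SMA mice, and 166, 98.5 and 18.2 among transplanted mice. Its difference of 1.21 (SE 0.48) between transplanted SMA and SMA rested on transplanted SMA 1 and 2. Slfn2, a regulator of lymphocyte quiescence, was at 0.68 in SMA minus wild type and 0.72 in transplanted SMA minus wild type, with neither past the adjusted threshold. Usp18, a protease that removes ISG15, and Irf7, the factor that amplifies type I interferon, were looked at after their values were seen and were too dim to test. Usp18 read 11.8 to 23.7 in wild type mice, 10.9 to 20.5 in SMA mice and 56.5, 54.6 and 18.7 among transplanted mice. Irf7 read 21.3 to 27.3 in SMA and 40 to 59.2 among transplanted mice, with 21.1 to 27.6 in wild type. Other dim genes went the other way, such as Eif2ak2, with 25 to 32.4 in SMA mice and 12.9 to 22.8 among transplanted mice. Dim genes were not counted by direction, so these picked genes do not stand for them as a set.

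The 4 tested interferon gamma-induced GTPases besides Igtp had medians of -0.11 in SMA minus wild type, 0.27 in transplanted SMA minus SMA and 0.20 in transplanted SMA minus wild type. Iigp1, which attacks the vacuoles of parasites, read 33.3, 27.2 and 39.8 in SMA and 89.6, 44.8 and 49.8 among transplanted mice, without overlap (0.61, SE 0.37). Wild type mice spanned both, with 35.1, 27.3 and 111.3. Ifi47 was at -0.22 and 0.44 in the same comparisons, and Irgm1 at 0.20 in transplanted SMA minus wild type.

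In the signalling list, 15 genes were tested and the medians were 0.10, -0.11 and -0.07. Socs3, the feedback inhibitor of JAK kinases that many cytokines induce, read 20.3, 41.5 and 59.5 among wild type mice, 35.5, 47.5 and 45.5 among SMA mice, and 359.1, 92.2 and 152.9 among transplanted mice. All 3 transplanted mice lay above all 6 others. The difference was 1.70 (SE 0.40, limma adjusted p = 0.933) against SMA and 1.81 (SE 0.40, limma adjusted p = 0.326) against wild type. Jak2, a kinase of the interferon gamma receptor, read 102.5, 123.4 and 122 among wild type mice, 207.1, 165.2 and 220.9 among SMA mice, and 152.3, 122.5 and 119.2 among transplanted mice. SMA mice lay above all others, by 0.69 (SE 0.18, limma adjusted p = 0.534) over wild type, and transplanted SMA minus SMA was -0.53. Ptpn2, a phosphatase that acts on JAK and STAT proteins, was at -0.77 in SMA minus wild type and -0.79 in transplanted SMA minus wild type. It read 325.1 to 365.2 among wild type mice, 91.7, 303.2 and 264.2 among SMA mice, and 170.6 to 210.4 among transplanted mice. SMA 1 was thus far below the other SMA mice.

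Other genes of class I and antigen processing had medians of -0.24, 0.08 and -0.11 over 11 tested. Calr, a chaperone of class I loading and of glycoproteins in general, read 952.9, 1139.9 and 1069.7 among wild type mice, 617.9, 626.5 and 692 among SMA mice, and 903.2, 753.8 and 786.2 among transplanted mice. No 2 groups overlapped, with transplanted SMA in the middle. The differences were -0.69 (SE 0.15, limma adjusted p = 0.375), 0.33 and -0.37. Tap2, a subunit of the peptide transporter, was at 0.49 in transplanted SMA minus wild type and 0.28 in transplanted SMA minus SMA. Psme3, a proteasome activator, was at -0.58 in SMA minus wild type. It read 88.2 to 123.9 among wild type mice and 36, 80 and 88.9 among SMA mice, again with SMA 1 far lowest. H2-M3, a nonclassical heavy chain singled out after its values were seen, read 34.1, 86.6 and 106.7 in wild type and 28.6 to 44.7 in SMA mice, with wild type 2 and 3 again on top (-0.66, SE 0.32). MHC class II genes, for presentation to helper T cells, had medians of -0.0035, 0.13 and -0.08 over 5 tested. Ctss, a protease of class II processing that microglia carry, was at -0.79 in transplanted SMA minus SMA and -0.57 in transplanted SMA minus wild type. The invariant chain Cd74 was at 0.18 and 0.32 against wild type, H2-DMa at -0.21 in SMA minus wild type and H2-Ab1 at 0.17 in transplanted SMA minus SMA.

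**Figure D5:**
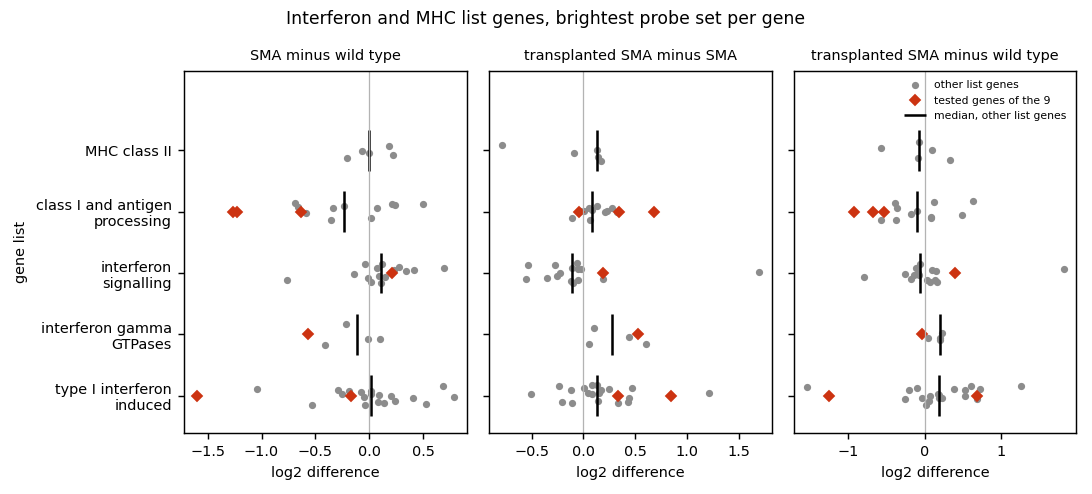
Fitted log2(signal + 16) differences (x axis) of the tested genes of 5 interferon and MHC lists (y axis, 1 row per list, points spread vertically for sight) in the 3 comparisons, with 1 brightest probe set per gene. Red diamonds are tested genes among the 9, grey points the 54 other genes, and vertical lines the medians of the grey points, which lie between -0.24 and 0.27.

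Likeness to a member over the 9 arrays was taken as Pearson r of log2(signal + 16), among 7130 genes outside the lists. The genes most like Rsad2 were Srpk1 (0.921), Czib (0.912) and Fam120b (0.911), and for H2-K1 they were Mtrex (0.917), Mlec (0.903) and Tpst2 (0.865). Igtp was closest to Galnt10 (0.875), Nrtn (0.856) and Osgep (0.848), and Lgals3bp to Slc52a3 (0.917), Usp36 (0.912) and Zdhhc8 (0.901). All of these rank over the same 9 arrays and share their differences in capture and amplification, and such values are picked as the highest of many.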

How the data were processed

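The authors deposited the intensity of each probe set as a linear MAS5 signal, per the submitters' processing notes. The MAS5 version was not among the sources used here. Of 22690 probe sets, 64 controls were left out. Genes were named from the platform annotation (20380 probe sets with 1 gene, 691 with several, 1555 unlisted). Signals were taken to log2 after adding 16, and the brighter 50% by the 9-array mean was fitted with limma 3.58.1 in R 4.3.3 (lmFit, eBayes with trend, a mean per group). Tests were two-sided with Benjamini-Hochberg adjustment and a threshold of 0.05, and the code was tested on simulated data. The members and the gene lists were chosen with earlier results of these data known. Beside the 9 genes, the text names up to 2 genes with the smallest p per list and comparison, the 3 genes most like each of 4 members, and markers. Outside that rule, Usp18, Irf7, Eif2ak2 and H2-M3 were named after their values were seen. Alternatives were quantile or median scaling, other pseudocounts, filters and variance settings, array weights, the sample number as a block, Xist as a covariate and arrays left out. Whether sample numbers pair the mice was not settled. A motif search covered both strands of the RefSeq promoter windows.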

Additional observations from a re-analysis of the deposited data

How the results depend on the processing

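Over 23 settings for each comparison the member calls changed in 1: leaving out 1 array at a time gave 0 to 1 members past the threshold in SMA minus wild type, the 1 being the brightest Rsad2 probe set without transplanted SMA 1 (limma adjusted p = 0.02), and 0 to 0 in the other comparisons. With the sample number as a replicate block 0 members passed in each comparison. Same-numbered arrays correlated at -0.083 to 0.453 in their deviations from group means, and differently numbered ones at -0.472 to 0.332. For 4 of the 9 arrays, the most alike array in each other group had the same number. Whether the numbers pair mice or batches was therefore not settled. List medians with 1 array left out ranged from -0.11 to 0.11, -0.07 to 0.11 and -0.02 to 0.19. With a stricter filter on dim probe sets the list median in transplanted SMA minus wild type was -0.0942.

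Some differences turned sign, among them H2-D1 in transplanted SMA minus wild type; the cause was not tested. Without the 3 arrays numbered 3 these were Lgals3bp in SMA minus wild type (0.095), the second B2m probe set in transplanted SMA minus SMA (0.17), and in transplanted SMA minus wild type Igtp (0.15) and H2-D1 (0.0851 and 0.0145 at its 2 brighter probe sets). With Xist as a covariate B2m turned to 0.021 and 0.0036 in transplanted SMA minus SMA. With 1 array left out Lgals3bp ranged from -0.346 to 0.0294 in SMA minus wild type, B2m from -0.30 to 0.33 and from -0.16 to 0.10 in transplanted SMA minus SMA, and Igtp from -0.17 to 0.18 in transplanted SMA minus wild type. Centring each array on its median moved the share of all probe sets higher to 40.2% in SMA minus wild type (51% as reported) and to 35.9% in transplanted SMA minus wild type (48.5%). Leaving out shared-probe sets removes all 6 tested class I probe sets, so it gave no value for H2-K1 and H2-D1.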
